A study of Mus musculus with 16 samples.

Results

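Nucleolar proteins that cells use to make ribosomes were followed in leukaemic T cells from mice kept on diets with little or no valine. The 10 genes are Ncl, Npm1, Fbl, Nop56, Nop58, Dkc1, Nolc1, Gnl3, Wdr43 and Ppan. They were taken by symbol, in a choice made with earlier results of these data known, and all 10 are among the 12012 genes of the deposited table. The samples were leukaemic cells sorted by their GFP signal from the spleens of C57BL/6 mice with T cell acute lymphoblastic leukaemia, T-ALL for short. The leukaemia came from secondary transplants and carried NOTCH-ΔE, an activated Notch receptor that all groups shared. Mice received 0, 0.4, 0.8 or 8 g/kg valine (8 g/kg is the control) for 3 weeks, and the age of the animals was not used here. The treatment protocol describes the 0.4 and 0.8 doses as additions to drinking water, whereas the sample characteristics, followed here, give them per kg of diet. Each diet has 2 libraries of ribosome-protected fragments (RPF), the pieces of mRNA covered by ribosomes, and 2 of total RNA. The pair of libraries carries the labels T-ALL 2 and T-ALL 3. Nothing in the labels tells if those numbers stand for tumours or for recipient mice, so p-values reflect the spread of these samples, which may be technical.

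The nucleolus is where RNA polymerase I transcribes the ribosomal RNA precursor and where that precursor is cut, chemically modified and folded onto ribosomal proteins. Box C/D particles guide ribose methylation and box H/ACA particles guide pseudouridylation, each with a small nucleolar RNA (snoRNA) as the guide. Genes of this machinery are known targets of the transcription factor Myc, which binds E-boxes and is itself a direct target of Notch in T-ALL. The series design asks how ribosome occupancy relative to mRNA, called translational efficiency (TE), follows dietary valine.

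The 10 genes cover several steps of that assembly line. Ncl encodes nucleolin and Npm1 encodes nucleophosmin, abundant nucleolar RNA-binding and chaperone proteins. Fbl encodes fibrillarin, the methyltransferase of box C/D particles, and Nop56 and Nop58 encode 2 core proteins that stand beside it. Dkc1 encodes dyskerin, the pseudouridine synthase of box H/ACA particles, and Nolc1 encodes a phosphoprotein that escorts both kinds of particle. Wdr43 encodes a member of the small subunit processome. Ppan encodes a factor of large subunit maturation, and Gnl3 encodes nucleostemin, a GTPase of the same pathway.

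In the GRCm38 build the genes lie on 9 chromosomes, Ncl at chr1:86344719-86359455 and Nop58 at chr1:59684961-59711510 sharing chromosome 1. Nop56 lies at chr2:130274367-130279313, Fbl at chr7:28168893-28179269, Ppan at chr9:20888175-20892179, Npm1 at chr11:33152498-33164142 and Gnl3 at chr14:31012433-31019131. Wdr43 lies at chr17:71616178-71659031, Nolc1 at chr19:46075847-46085543 and Dkc1 at chrX:75095854-75109776. RefSeq places 20 snoRNA genes inside the bounds of 7 of the 10 genes, with 5 in Nop56, 4 in Nop58 and none in Npm1, Fbl or Nolc1. Of 11269 protein-coding genes of the table found in RefSeq, 2.35% hold a snoRNA gene within their bounds (strand was not compared). Nop56, Dkc1 and Gnl3 overlap a neighbour at one end, by 5, 44 and 9 bases, where reads could be counted for either gene.

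Promoter sequences show where an E-box is found near the start sites. RefSeq promoters (GRCm38.p6, 250 bases before to 50 after the start site) were at hand for 8 of the 10 genes, all except Npm1 and Fbl. The canonical E-box CACGTG, which reads the same on both strands, was in 1 of 8 promoters, that of Wdr43, and in 10.3% of the promoters of 9118 table genes. The variant CACGCG, searched on both strands, was in 2 of 8, those of Nolc1 and Ppan, and in 18.0% of the same promoters. The 3 windows that hold a match are shown from 50 bases before to 30 bases after the start site on the plus strand, with the match in capitals, at chr17:71616165-71616244, chr19:46075797-46075876 and chr9:20888125-20888204.
Wdr43: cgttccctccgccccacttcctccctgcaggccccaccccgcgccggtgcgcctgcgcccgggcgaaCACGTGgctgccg
Nolc1: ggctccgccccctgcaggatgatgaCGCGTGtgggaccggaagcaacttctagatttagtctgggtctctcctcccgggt
Ppan: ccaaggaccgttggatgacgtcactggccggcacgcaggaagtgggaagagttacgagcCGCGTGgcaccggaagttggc
Positions count from the start site of each promoter entry. The match begins at base 18 in Wdr43, at base 10 in Ppan and 25 bases before the start site in Nolc1. For Wdr43 that start site lies inside the gene bounds given above, downstream of their first base.

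Depth limits what the RPF values can show. Values are FPKM, a read density per length of gene and per size of library, and reads per gene were recovered from them. RPF libraries held 41848 to 205545 gene reads and total RNA libraries 364685 to 1269364. In total RNA each of the 10 genes had from 44 to 2242 reads per library, and in RPF from 3 to 349. All 10 passed the filter of a mean of at least 1 FPKM in both fractions. Markers of the sorted T cells were measured in all libraries, at 38.9 to 48.2 reads per 10000 in total RNA, with 0 of 10 genes at 0 reads. Neutrophil markers, 10 genes, held 4.65 and 2.22 reads per 10000 of total RNA at 0 g/kg, against 0.173 and 0.165 at 8 g/kg, with 0 of 10 at 0 reads in both libraries against 2 and 6 of 10. Erythroid markers, also 10 genes, held 0.199 and 0.280 against 1.70 and 4.16, with 4 and 8 of 10 at 0 reads against 0 and 1. In RPF the neutrophil markers held 25.9 and 3.28 per 10000 at 0 g/kg, against 0.239 and 0.420 at 8 g/kg, and the erythroid ones 0.498 and 2.65 against 4.54 and 17.4. Over the 8 total RNA libraries, macrophage markers held 0.0548 to 0.241, the 2 measured B cell markers 0.0134 to 0.511 and the 4 measured natural killer cell markers 3.95 to 6.79 per 10000. At 0 reads per library were 1 to 6 of 8 macrophage markers and 1 of the 2 B cell markers. Of the 4 natural killer cell markers, 0 to 2 were at 0 reads. The part of these other cells in the results below was not tested. In bulk libraries fewer cells of a type and less RNA per cell cannot be told apart.

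Total RNA of the nucleolar genes was nearly level across the 4 diets. Npm1 was the most abundant, with 933 and 754 FPKM at 0 g/kg, 959 and 872 at 0.4 g/kg, 874 and 1071 at 0.8 g/kg, and 883 and 952 at 8 g/kg (T-ALL 2 first in each pair). Ncl, second in level, had 237 and 198 FPKM at 0 g/kg, 232 and 220 at 0.4 g/kg, 203 and 218 at 0.8 g/kg, and 239 and 210 at 8 g/kg. For both genes the libraries of every low-valine diet overlapped in range with the control libraries. Below them in mean total RNA FPKM came Fbl at 151, Nop56 at 100.3, Wdr43 at 77.5, Gnl3 at 74.7, Dkc1 at 71.5, Nolc1 at 69.0, Ppan at 65.2 and Nop58 at 27.5. From Wdr43 down to Ppan, neighbours in this order differed by less than their SD over the 8 libraries, and the other neighbours differed by more.

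**Figure D1:**
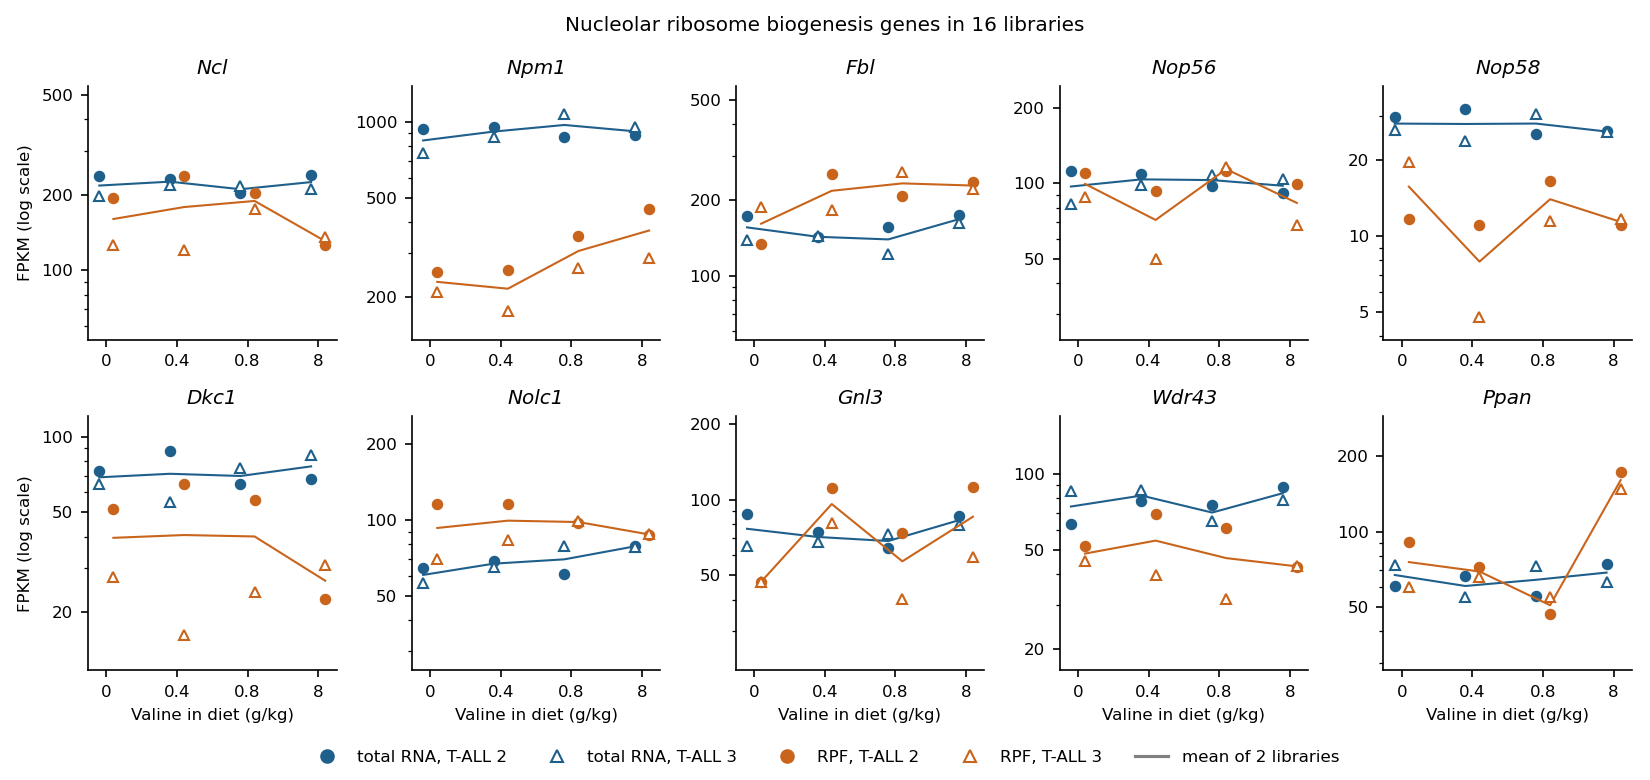
FPKM on a log scale (y axis) of the 10 genes at 4 valine doses (x axis, g/kg), with circles for T-ALL 2, triangles for T-ALL 3 and lines through the mean of the 2 libraries. Total RNA (blue) is nearly level for each gene, RPF (orange) is more scattered, and Ppan RPF is highest in the 2 libraries at 8 g/kg, at 172 and 148 FPKM.

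The highest library exceeded the lowest by 1.21-fold for Ncl and by 1.59-fold for Dkc1, with the other 8 genes between them. The coefficient of variation over the 8 total RNA libraries was 7.05% for Ncl and 15.2% for Dkc1. Among 1715 genes with a mean of at least 40 FPKM the median was 13.8%, and 8 of the 9 nucleolar genes at that level lay below it. Read counts alone would give 3.01% for Ncl and 9.06% for Dkc1.

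None of the 10 genes passed the test in total RNA on any of the 3 low-valine diets (limma, Benjamini-Hochberg adjusted p of 0.05 or less). All genes gave 0 calls (0%) of 10054 in each of these comparisons, and with voom on recovered reads 3, 0 and 0 at 0, 0.4 and 0.8 g/kg, with none of the 10 among them. At an unadjusted p under 0.05 stood 0 of the 10 genes on each diet, against 6.58%, 3.09% and 3.45% of all genes. Between 0 and 8 g/kg the median log2 change of the 10 genes was -0.12, against -0.04 over all genes, with 9 of 10 below 0. The sign of that median rests on 1 library, since without total RNA 0 g/kg T-ALL 3 it was 0.04. At 0.4 g/kg the median was -0.08 and at 0.8 g/kg -0.11, with 7 of 10 below 0 on each diet. Without total RNA 0.4 g/kg T-ALL 3 the median at 0.4 g/kg was 0.00072. The 95% intervals of the fold changes ran from 0.579 to 1.54 across the 10 genes and 3 diets, so a p that missed the threshold does not show equal levels. The 3 comparisons share the same 2 control libraries.

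The intervals say how large a change in total RNA could have gone unseen. Across the 10 genes and 3 diets the 95% confidence intervals of the fold change ran from 0.579 to 1.54. Ncl had a log2 change of -0.05 ± 0.14 (SE) at 0 g/kg and Npm1 of -0.13 ± 0.15, and both intervals included 0. Of the box C/D proteins, Fbl had -0.12 ± 0.17, Nop56 -0.02 ± 0.18 and Nop58 0.10 ± 0.23. Dkc1 had -0.14 ± 0.24, Gnl3 -0.13 ± 0.19, Wdr43 -0.19 ± 0.19 and Ppan -0.03 ± 0.21. For 8 of the 10 genes, all but Nop58 and Nolc1, leaving out 1 library turned the sign of this small difference.

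Nolc1 showed the largest difference in total RNA between 0 and 8 g/kg. Its FPKM was 64.6 and 56.4 at 0 g/kg, 68.9 and 65.3 at 0.4 g/kg, 60.9 and 78.7 at 0.8 g/kg, and 79.2 and 78.1 at 8 g/kg. Both libraries at 0 g/kg and both at 0.4 g/kg lay below both control libraries, while those at 0.8 g/kg lay on either side of the lower one. Its log2 change at 0 g/kg was -0.38 ± 0.18 (SE, adjusted p = 0.793, limma). Over the 4 diets its slope was -0.12 ± 0.05 log2 units per step of less valine, with an adjusted p of 0.717 and an unadjusted p of 0.0449, the only one of the 10 genes under 0.05, where 6.79% of all genes were. None of the 10 genes passed the test of the slope, as 0 of 10054 genes (0%) did. Leaving out 1 library at a time, the unadjusted p of Nolc1 ranged from 0.0235 to 0.139 and was not under 0.05 in 6 of 8 cases, namely without 0 g/kg T-ALL 3, 0.8 g/kg T-ALL 3 or either library at 0.4 or 8 g/kg. With the T-ALL number as a replicate block it was 0.0551, and with voom, which called 14 genes, 0.0419.

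Total RNA groups that did not overlap were counted among the 10 genes and among all genes. At 0 g/kg, 1 gene (Nolc1) had both libraries below both controls and 1 (Nop58) had both above, against 20.3% and 16.1% of all genes. At 0.4 g/kg, Fbl, Nolc1 and Gnl3 had both below, against 19% of all genes, and at 0.8 g/kg Fbl, Gnl3 and Wdr43 did, against 17.8%. None of the 10 had both above at 0.4 or 0.8 g/kg, against 18.4% and 13.8% of all genes. With only 10 genes, these counts are not read as a trait of the genes. No nucleolar gene had all 6 low-valine total RNA libraries on one side of both controls, against 4.39% of all genes below and 3.1% above.

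Myc, the regulator named above, differed more than any of the 10 genes in total RNA. Its FPKM was 167 and 143 at 0 g/kg, 221 and 183 at 0.4 g/kg, 230 and 201 at 0.8 g/kg, and 272 and 262 at 8 g/kg. Every low-valine library lay below both control libraries. The log2 change at 0 g/kg was -0.78 ± 0.15 (SE, unadjusted p = 0.000702), with an adjusted p of 0.267 that did not pass the test. In RPF, Myc had 316 and 259 FPKM at 0 g/kg, 346 and 203 at 0.4 g/kg, 305 and 323 at 0.8 g/kg, and 362 and 351 at 8 g/kg. There too all 6 low-valine libraries lay below both controls, as for 3.09% of all genes in RPF, against 4.39% in total RNA. The log2 changes of Myc RPF were -0.32, -0.43 and -0.18 at 0, 0.4 and 0.8 g/kg, each ± 0.33 (SE), and did not pass the test.

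In RPF the median log2 changes of the 10 genes and of all genes were both above 0 on each diet. That of the 10 genes was 0.10 at 0 g/kg (all genes 0.12), 0.04 at 0.4 g/kg (all genes 0.08) and 0.10 at 0.8 g/kg (all genes 0.30). None of the 10 passed the test (limma, adjusted p), as 0 of 9718 genes (0%) did on each diet, while voom on recovered reads called 6, 0 and 0 genes, none of them among the 10. At an unadjusted p under 0.05 stood 1 of the 10 genes on each diet, Ppan each time, against 7.17%, 6.67% and 5.58% of all genes. The intervals were wide, with fold changes from 0.178 to 4.90 across the 10 genes and 3 diets. A p that missed the threshold in RPF therefore does not show equal levels. The sign of these medians rests on single libraries and, at 0 and 0.8 g/kg, on how the libraries are scaled. With libraries centred on their median, that of the 10 genes was -0.052 at 0 g/kg (all genes -0.038). With the same centring it was -0.085 at 0.8 g/kg (all genes 0.12). At 0 g/kg the median was -0.16 without RPF 0 g/kg T-ALL 2 (all genes 0.15). At 0.4 g/kg it was -0.50 without RPF 0.4 g/kg T-ALL 2 and -0.19 without RPF 8 g/kg T-ALL 3, and at 0.8 g/kg it was -0.06 without RPF 0.8 g/kg T-ALL 2 (all genes 0.29).

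**Figure D2:**
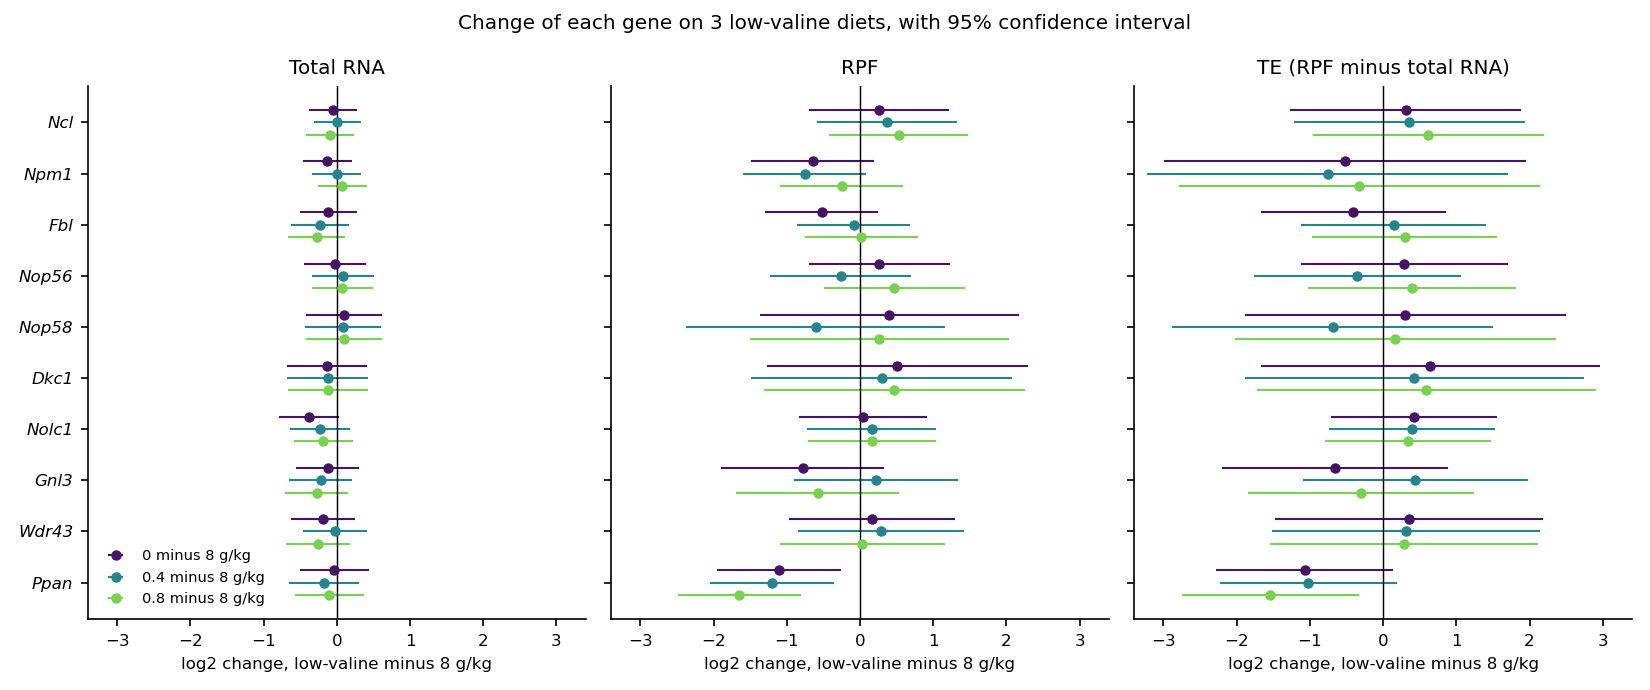
Log2 change of each gene (x axis) on 0, 0.4 and 0.8 g/kg against 8 g/kg in total RNA, RPF and TE, points with 95% confidence intervals from limma, unadjusted for the number of genes tested. Total RNA points lie near 0, and the Ppan RPF points, at -1.11, -1.20 and -1.65, have intervals that leave out 0.

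Ppan had the lowest log2 change of the 10 genes in RPF on each low-valine diet. Its RPF value was 90.8 and 60.3 FPKM at 0 g/kg, 72.5 and 66.1 at 0.4 g/kg, 46.8 and 54.9 at 0.8 g/kg, and 172 and 148 at 8 g/kg. All 6 low-valine libraries lay below both control libraries, a pattern held by 1 of the 10 genes and by 3.09% of 9718 genes, while none of the 10 had all 6 above, against 4.45%. Its total RNA did not separate in this way, with 60.6 and 73.6 FPKM at 0 g/kg, 66.3 and 55.1 at 0.4 g/kg, 55.5 and 73.0 at 0.8 g/kg, and 74.4 and 62.9 at 8 g/kg.

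On the diets with 0, 0.4 and 0.8 g/kg the log2 change of Ppan RPF was -1.11, -1.20 and -1.65, each ± 0.36 (SE). These changes stood at percentiles 14.7, 15.8 and 5.68 of all genes, and all of them share the same control libraries. Unadjusted p-values from limma were 0.0166, 0.0113 and 0.00212, and the adjusted ones 0.587, 0.644 and 0.664, so no comparison passed the test. Leaving out 1 library at a time, the log2 change ranged from -1.40 to -0.81 at 0 g/kg, from -1.31 to -1.09 at 0.4 g/kg and from -1.76 to -1.53 at 0.8 g/kg. With voom on recovered reads the unadjusted p-values on the 3 diets were 0.0858, 0.0524 and 0.00419. The slope of Ppan RPF over the 4 diets was -0.29 ± 0.18 (SE) per step of less valine, and the lowest values were at 0.8 g/kg and not at 0 g/kg. None of the 10 genes passed the test of this slope, which 1 of 9718 genes (0.0103%) did, and none had an unadjusted p under 0.05, against 5.97% of all genes.

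The Ppan values rest on few reads. Its RPF counts were 15 and 10 at 0 g/kg, 19 and 8 at 0.4 g/kg, 18 and 12 at 0.8 g/kg, and 15 and 22 at 8 g/kg. As a share of gene reads this was 1.87 and 1.26 per 10000 at 0 g/kg, 1.35 and 1.37 at 0.4 g/kg, 0.876 and 1.04 at 0.8 g/kg, and 3.58 and 3.08 at 8 g/kg. The 95% Wilson interval of the control library of T-ALL 2 was 2.17 to 5.91 and of T-ALL 3 was 2.03 to 4.66 per 10000, which cover counting error only. Both libraries at 0 g/kg, with intervals of 1.13 to 3.08 and 0.686 to 2.33, overlapped both controls, as did that of 0.4 g/kg T-ALL 3, 0.693 to 2.70. The interval of 0.4 g/kg T-ALL 2, 0.865 to 2.11, overlapped that of the T-ALL 3 control alone. At 0.8 g/kg the intervals, with upper bounds of 1.38 and 1.82, overlapped neither control, so 4 of 6 low-valine libraries overlapped a control. The 2 control RPF libraries are also among the 3 shallowest, with 41848 and 71432 gene reads.

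Npm1 RPF was 252 and 210 FPKM at 0 g/kg, 257 and 176 at 0.4 g/kg, 350 and 262 at 0.8 g/kg, and 452 and 287 at 8 g/kg. Both libraries at 0 and at 0.4 g/kg lay below both controls, and those at 0.8 g/kg overlapped them. The log2 change was -0.65 ± 0.36 (SE) at 0 g/kg, with an adjusted p of 0.818 from limma. Gnl3 RPF was 47.2 and 47.0 FPKM at 0 g/kg, 112 and 80.4 at 0.4 g/kg, 73.4 and 40.1 at 0.8 g/kg, and 112 and 59.0 at 8 g/kg, each from 8 to 30 reads. These values did not follow the order of dose, and the change at 0 g/kg was -0.78 ± 0.48 (SE).

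Among box C/D proteins, Fbl RPF was 134 and 188 FPKM at 0 g/kg, 253 and 182 at 0.4 g/kg, 208 and 258 at 0.8 g/kg, and 236 and 220 at 8 g/kg. Its partners Nop56 and Nop58 ranged from 50.1 to 116 FPKM and from 4.78 to 19.8 FPKM over the 8 libraries, with the lowest value of both in the 0.4 g/kg library of T-ALL 3. Log2 changes at 0 g/kg were -0.52 ± 0.33 for Fbl, 0.27 ± 0.41 for Nop56 and 0.40 ± 0.76 for Nop58 (SE). Ncl RPF lay at 194 and 127 FPKM at 0 g/kg, against 126 and 135 at 8 g/kg, a log2 change of 0.26 ± 0.41. Dkc1 had 0.51 ± 0.77, Wdr43 0.16 ± 0.49 and Nolc1 0.04 ± 0.38, all within their error. Leaving out 1 library turned the sign for Ncl, Nop56 and Nolc1.

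Of the 10 genes, 4 had both 0 g/kg RPF libraries below both controls (Npm1, Fbl, Gnl3 and Ppan), against 11.7% of all genes, and 1 (Wdr43) had both above, against 16.7%. At 0.4 g/kg, 3 lay below (Npm1, Nop58 and Ppan), against 12.7%, and none above, against 15.9%. At 0.8 g/kg, only Ppan lay below, against 9.82%, and Ncl, Nop56 and Nolc1 lay above, against 21.5%.

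As a share of all gene reads, the 10 genes pooled took less of the RPF libraries labelled T-ALL 3 than of those labelled T-ALL 2 on every diet. Ncl gave the most reads to this sum, 143 of 345 at 0 g/kg T-ALL 2, and single genes did not all follow it. At 0.4 g/kg each of the 10 had a lower RPF FPKM in T-ALL 3. Among those higher in T-ALL 3 on another diet were Fbl at 0 and 0.8 g/kg, Nop58 at 0 g/kg, and Ncl and Dkc1 at 8 g/kg. In T-ALL 3 the share was 34.6, 30.4, 38.5 and 38.6 reads per 10000 at 0, 0.4, 0.8 and 8 g/kg. In T-ALL 2 it was 42.9, 46.7, 43.3 and 43.7 in the same order of diets. The 95% Wilson intervals of the pair overlapped at 0, 0.8 and 8 g/kg and were apart at 0.4 g/kg. Total RNA shares lay between 45.3 and 50.6 per 10000, and there T-ALL 3 was the lower at 0, 0.4 and 8 g/kg and the higher at 0.8 g/kg. The RPF order was not particular to the 10 genes. Large subunit assembly factors also took less of T-ALL 3 on every diet, at 72.8 to 81.1 against 79.3 to 90.3 per 10000. The small subunit processome did so at 0, 0.4 and 0.8 g/kg but not at 8 g/kg. Cytosolic ribosomal proteins took more of T-ALL 3 at 0, 0.4 and 0.8 g/kg. How many of all genes hold this order is not given here.

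**Figure D3:**
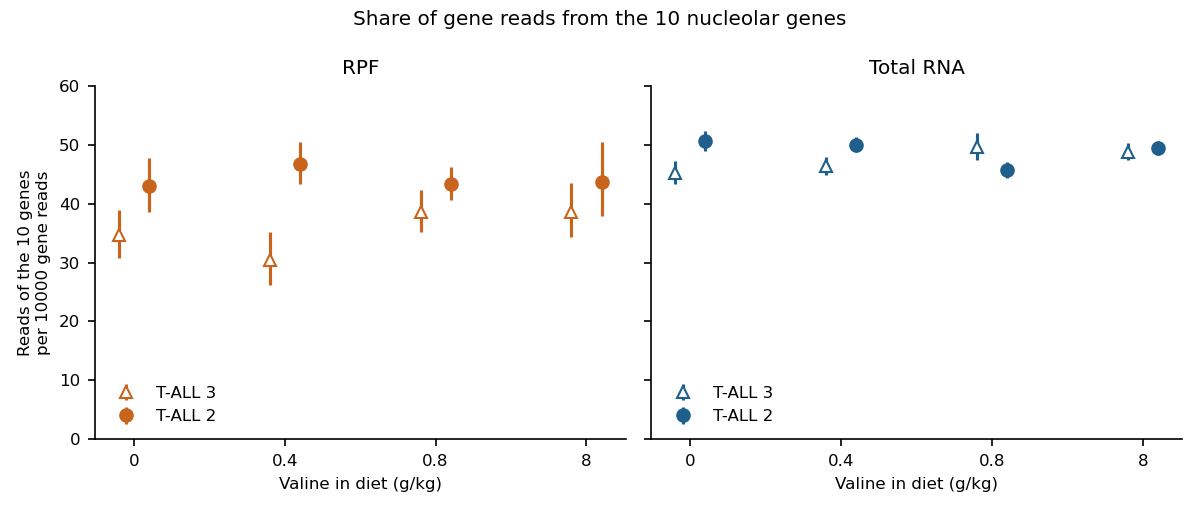
Reads of the 10 genes per 10000 gene reads (y axis) in each RPF and total RNA library by valine dose (x axis, g/kg), with 95% Wilson intervals as bars, which cover counting error only. RPF shares of T-ALL 3 (triangles) lie below those of T-ALL 2 (circles) on all 4 diets, at 30.4 to 38.6 against 42.9 to 46.7.

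TE covered a wide range among the nucleolar genes. Here it is the log2 RPF value minus the log2 total RNA value of the same diet and T-ALL number, averaged over 8 pairs. Fbl had the highest mean, 0.45 ± 0.42 (SD), with Nolc1 at 0.44 ± 0.27 and Ppan at 0.31 ± 0.65. Gnl3 had -0.15 ± 0.57, Nop56 -0.16 ± 0.41, Ncl -0.45 ± 0.37 and Wdr43 -0.72 ± 0.39. The lowest were Dkc1 at -1.09 ± 0.61, Nop58 at -1.22 ± 0.55 and Npm1 at -1.75 ± 0.42.

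Among 9361 genes measured in both fractions the median TE was -0.59. Fbl and Nolc1 stood at percentiles 89.4 and 89.2 of these genes, Ppan at 85.1, Nop58 at 27.3 and Npm1 at 14.2. Fbl and Nop58, both core proteins of box C/D particles, were therefore far apart, and Nop58 lay below Fbl in all 8 pairs. Nop56 stood between them, at percentile 67.9. Every neighbouring pair in the order of TE differed by less than the larger of its 2 SDs. Cytosolic ribosomal proteins, the products that these genes help to assemble, had a median TE of -1.93 over 73 genes.

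**Figure D4:**
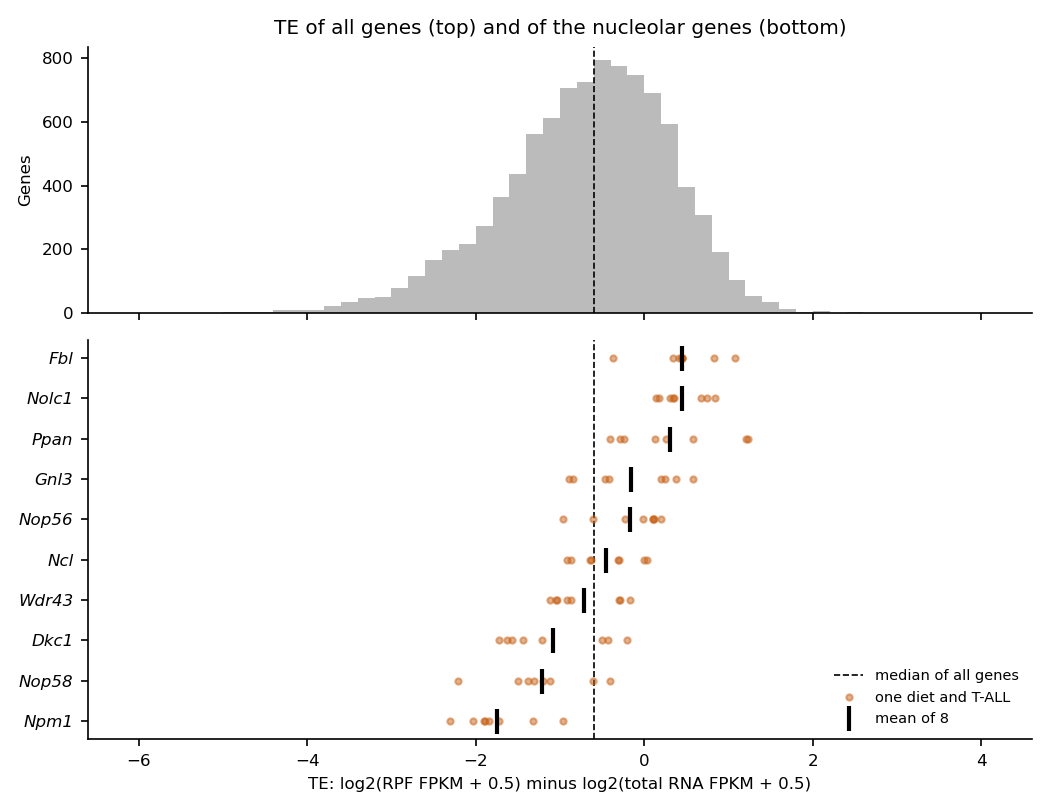
TE of all 9361 genes as a histogram (top) and of the 10 nucleolar genes (bottom), on 1 x axis of log2 RPF minus log2 total RNA, where points are the 8 pairs of libraries, black bars their mean and the dashed line the median of all genes. Fbl, Nolc1 and Ppan lie to the right, at 0.31 to 0.45, and Npm1 to the left, at -1.75.

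Between diets, no nucleolar gene passed the test in TE, as 0 of 9361 genes (0%) did on each diet with limma, and 0 with a voom model of both fractions. At an unadjusted p under 0.05 stood 0 of the 10 genes at 0 and at 0.4 g/kg, against 6.58% and 6.68% of all genes, and 1 (Ppan) at 0.8 g/kg, against 6.23%. The median TE change of the 10 genes was 0.30, 0.23 and 0.29 at 0, 0.4 and 0.8 g/kg, against 0.20, 0.14 and 0.36 over all genes. Without RPF and total RNA of 0.4 g/kg T-ALL 2 the median at 0.4 g/kg was -0.19, and without those of 0.8 g/kg T-ALL 2 that at 0.8 g/kg was -0.10.

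Ppan TE was 0.58 and -0.29 at 0 g/kg, 0.13 and 0.26 at 0.4 g/kg, -0.24 and -0.41 at 0.8 g/kg, and 1.21 and 1.23 at 8 g/kg. The changes against 8 g/kg were -1.07 ± 0.51, -1.02 ± 0.51 and -1.54 ± 0.51 (SE), with adjusted p-values from limma of 0.800, 0.824 and 0.722. Without the 0 g/kg libraries of T-ALL 3 the change at 0 g/kg was -0.64. Nolc1 TE went the other way, with 0.84 and 0.31 at 0 g/kg, 0.74 and 0.35 at 0.4 g/kg, 0.67 and 0.34 at 0.8 g/kg, and 0.14 and 0.18 at 8 g/kg. Its change at 0 g/kg was 0.42 ± 0.48 (SE, adjusted p = 0.935, limma). At 0, 0.4 and 0.8 g/kg the Nolc1 changes stood at percentiles 58.2, 58.8 and 49.4 of all genes, near the middle. Those of Ppan stood at percentiles 14.7, 17.7 and 6.11. Ppan was the only one of the 10 genes with all 6 low-valine values below both controls and Nolc1 the only one with all 6 above, against 2.97% and 6.41% of all genes.

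Other genes of ribosome assembly were measured beside the 10. In total RNA at 0 against 8 g/kg, 12 of 15 genes of the RNA polymerase I machinery lay below 0, with a median log2 change of -0.22. Of the small subunit processome 36 of 47 lay below 0 (median -0.16), of large subunit assembly factors 38 of 51 (-0.12), of snoRNP partners 7 of 13 (-0.14) and of the nuclear exosome 9 of 13 (-0.10). Of cytosolic ribosomal proteins 71 of 73 lay below 0, with a median of -0.15. At 0.4 and 0.8 g/kg 55 and 47 of these 73 did, with medians of -0.08 and -0.03 (all genes -0.01 and -0.03). The other lists had medians below 0 on both of these diets, except the nuclear exosome with 0.06 at 0.4 g/kg. In total RNA the polymerase I list held 11.4 and 9.85 reads per 10000 at 0 g/kg, against 11.5 and 11.7 at 8 g/kg (T-ALL 2 first). Ribosomal proteins held 1268 and 1149 against 1301 and 1303, so in both lists T-ALL 3 lay further below its control. The small subunit processome held 37.8 and 36.7 against 41.4 and 39.1. These lists were not refitted without 1 library, and the share of all genes below 0 is not given here. No gene of these lists passed the test in any comparison, and medians over all genes were -0.04 in total RNA and 0.12 in RPF at 0 g/kg. In RPF at 0 g/kg the same lists had medians of 0.24, 0.05, -0.04, -0.30, -0.51 and -0.12 in this order.

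**Figure D5:**
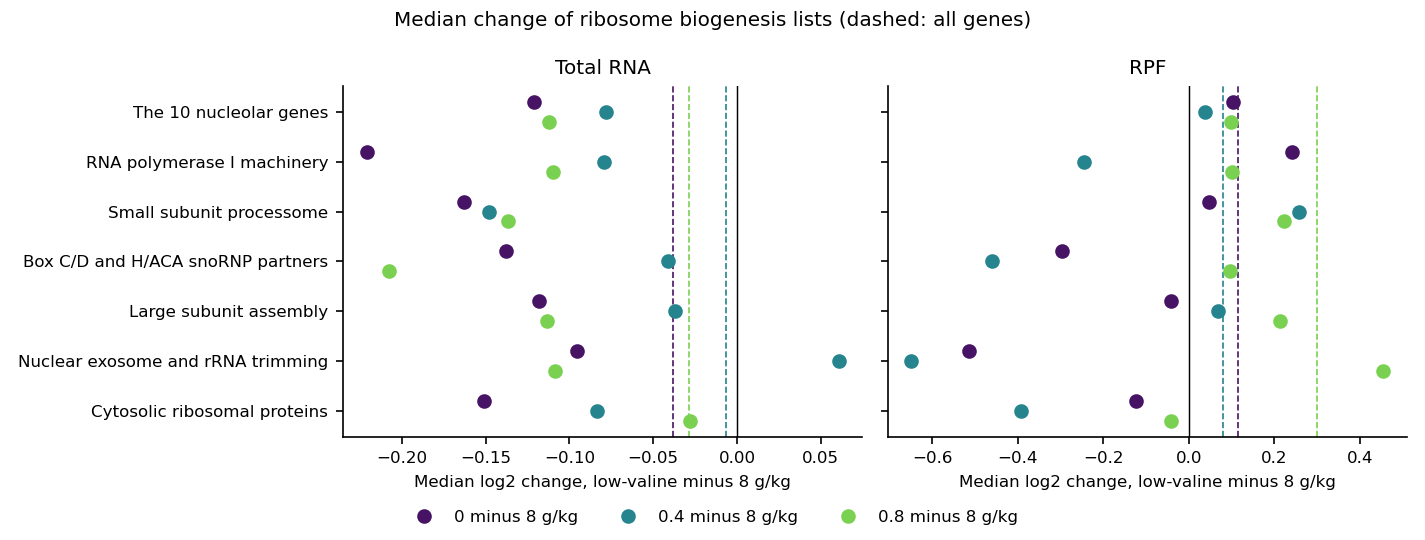
Median log2 change (x axis) of the 10 nucleolar genes and of 6 lists of ribosome assembly genes on 3 low-valine diets against 8 g/kg, in total RNA and RPF, with dashed lines for the median of all genes on each diet. Total RNA medians of the 10 genes lie between -0.12 and -0.08, and RPF medians between 0.04 and 0.10.

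The most abundant genes of these lists in total RNA, Myc apart, had log2 changes between -0.62 and 0.29 at 0 g/kg, none past the test. Rps3a1, a small subunit protein, had a total RNA log2 change of -0.14 ± 0.10 (SE) at 0 g/kg and Rplp0, a stalk protein of the large subunit, of -0.30 ± 0.09 (unadjusted p = 0.0123, adjusted p = 0.604, limma). Imp3 of the small subunit processome had -0.16 ± 0.17 and Fcf1 -0.62 ± 0.40. Nhp2l1, which binds the box C/D guide RNA, had -0.37 ± 0.19, and the helicase Ruvbl1, which helps to assemble the particles, had -0.14 ± 0.19. Rrp1 had -0.01 ± 0.15 and Rsl1d1 -0.49 ± 0.17 (unadjusted p = 0.0193, adjusted p = 0.647, limma), both of large subunit assembly. In RPF, Rsl1d1 had -1.54 ± 0.35, with an unadjusted p of 0.00256 and an adjusted p of 0.470 from limma. Polr1d, a polymerase subunit, had -0.18 ± 0.25 in total RNA and Taf1d, of the promoter selectivity factor, 0.22 ± 0.27. Exosc3 had 0.27 ± 0.19 and Exosc7 0.03 ± 0.23, both exosome subunits. Max, the partner of Myc, had 0.29 ± 0.38.

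The shared profile of the 10 genes in total RNA was their mean log2 value in each library, centred per gene. It was 0.05 and -0.11 at 0 g/kg, 0.08 and -0.10 at 0.4 g/kg, -0.10 and 0.04 at 0.8 g/kg, and 0.09 and 0.06 at 8 g/kg (T-ALL 2 first). The libraries of a low-valine diet thus lay on both sides of 0. Of 5520 other genes with a mean of at least 10 FPKM, those most like it over the 8 libraries were Angel2 (Pearson r = 0.96), Matr3 (0.96), Tjap1 (0.95), Slc25a51 (0.94) and R3hdm1 (0.93). None of these 5 is in the ribosome lists used here, and Myc had r = 0.56. These correlations describe 8 libraries that share depth and normalization with the genes compared. The 5 genes were picked as the highest of 5520 values over 8 libraries, and how high r would reach among unrelated genes was not tested.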

How the data were processed

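Total RNA and RPF were prepared with a ribosome profiling kit, per the labels' protocols. Tools in the submitters' processing notes are edgeR 3.14.0, STAR 2.5.0c, Bowtie2 2.3.4 and cutadapt 1.18, and the builds GRCm38 and mm10. The sources used here do not give what each did, how reads were counted or the FPKM formula. The authors deposited FPKM values for 12012 genes in 16 libraries.

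Each library's FPKM steps returned whole reads for 100% of 149988 values above 0 (within 0.02 reads). No reads allow up to 3. Wilson intervals (95%) cover counting error only. log2(FPKM + 0.5) of genes with a mean of at least 1 FPKM entered limma 3.58.1 (R 4.3.3) by diet over the 8 libraries of a fraction, with a variance trend, two-sided tests and Benjamini-Hochberg adjustment at 0.05 over all genes tested. SEs come from this moderated variance. TE is RPF minus total RNA on that log2 scale, which understates changes of low genes. The slope codes the 4 diets as equal steps. An exact permutation test of 2 against 2 cannot go below p = 0.333, so none was run. The recovery and the fits were tested on simulated data, where the RPF fit called few of the changes put in.

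The 10 genes, the lists and the rule for named genes were chosen with earlier results of these data known. The rule names all 10 genes, Myc, members of each list past the test or else its 2 most abundant in total RNA, and the 5 genes most like the shared profile. Positions, snoRNA genes and promoters come from RefSeq (GRCm38.p6). Alternatives were other pseudocounts, filters and centring, T-ALL number as a block, voom with TMM on recovered reads, only the libraries compared, log2 dose, and each library left out.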

Additional observations from a re-analysis of the deposited data

How the results depend on the processing

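No nucleolar gene passed the test in any of 11 comparisons under any setting run. Counts of all genes past the test moved more. For 0 against 8 g/kg in total RNA, voom called 3 genes and leaving out 1 library 0 to 4, against 0. For 0.8 against 8 g/kg, leaving out 1 library gave 0 to 28, the 28 without total RNA 0.8 g/kg T-ALL 2. In RPF, omitting the filter called 47, 18 and 64 genes at 0, 0.4 and 0.8 g/kg. At 0 g/kg voom called 6, and leaving out 1 library 0 to 56, the 56 without RPF 0 g/kg T-ALL 3. The total RNA slope gave 2 calls with a pseudocount of 1, 14 with voom and 0 to 5 without 1 library. The RPF slope gave 1 call, 8 with voom, and 0 with a pseudocount of 0.1, no filter, a minimum of 5 FPKM, median centring, the replicate block or any 1 library left out.

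Median log2 changes of the 10 genes moved by more than the spread between the T-ALLs with median centring, to -0.045 in total RNA at 0.4 g/kg, -0.085 in RPF at 0.8 g/kg, and 0.091 and -0.046 in TE at 0 and 0.8 g/kg. Leaving out 1 library gave -0.17 to 0.00072 in total RNA at 0.4 g/kg. In RPF it gave -0.16 to 0.15 at 0 g/kg, -0.50 to 0.29 at 0.4 g/kg and -0.062 to 0.30 at 0.8 g/kg, and -0.059 to 0.038 per step. In TE it gave 0.040 to 0.30, -0.19 to 0.49 and -0.10 to 0.48.

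Single genes turned sign at 0 against 8 g/kg, all with differences within their error. In total RNA, Nop56 was 0.018 with voom. Without 1 library, Ncl ranged from -0.18 to 0.083, Npm1 from -0.28 to 0.026, Fbl from -0.28 to 0.046, Nop56 from -0.24 to 0.19, Dkc1 from -0.30 to 0.022, Gnl3 from -0.34 to 0.086, Wdr43 from -0.40 to 0.027 and Ppan from -0.17 to 0.11. In RPF, Nolc1 was -0.11 with median centring. Without 1 library, Ncl ranged from -0.043 to 0.57, Nop56 from -0.0015 to 0.53 and Nolc1 from -0.32 to 0.40. In TE, Fbl ranged from -0.82 to 0.0017, Nop56 from -0.070 to 0.65 and Nop58 from -0.15 to 0.76. The cause of these moves was not tested.

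The labels do not say what a T-ALL number shares. Samples were not treated as paired between diets, by a rule that asked for the difference between T-ALL 2 and T-ALL 3 to correlate above 0.1 between all diets. Missing that rule does not show that the samples are unpaired. TE does pair RPF with total RNA by T-ALL number. Over genes the difference between T-ALL 2 and T-ALL 3 correlated at -0.04 to 0.25 in total RNA, above 0.1 in 4 of 6 pairs of diets. In RPF it correlated at -0.02 to 0.07, above 0.1 in 0 of 6. The replicate block changed the call of no nucleolar gene, and its count of calls, 0, differed from 1 in the RPF slope alone. RPF depth, 3 to 349 reads per nucleolar gene and library, limits what could be seen. The voom model of both fractions for TE was added after seeing the data. Groups of 2 were too small for a test of outlying samples.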
